A study of Homo sapiens with 6 samples.

Results

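The genes of cholesterol and fatty acid synthesis were followed after induction of NME2 in A549, an established human cell line grown from a lung adenocarcinoma. The set held 30 genes, chosen by their place in the pathways: the enzymes that turn acetyl-CoA into sterols, the enzymes that build, lengthen and desaturate fatty acids, and the proteins that sense and move sterols. A probe was named for 29 of the 30 genes, and all 29 were detected and tested among 11358 genes in all. FDFT1, which encodes squalene synthase, was not analysed here because no probe carried its symbol in the annotation used.

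NME2 induced cells (3 arrays) had been transfected with pcDNA-NME2-MYC and control cells (3 arrays) with pcDNA-MYC. RNA was collected 48 hours after transfection and read on Illumina HT-12 v4 bead arrays. NME2 is a nucleoside diphosphate kinase that is also known to bind DNA, and plasmids of the pcDNA type drive their insert from a viral promoter. The model is thus NME2 carried on a plasmid in a single line. Array probes for NME2 and for its readthrough with NME1 did not all go the same way between the groups, as given with the array checks, so they do not settle whether the labels are right. The groups are named as labelled, and each direction given for the lipid genes depends on those labels. The series' description calls the arrays biological replicates without saying how the cultures were separated. Changes in the number of cells of a kind and in RNA per cell cannot be told apart in such bulk RNA.

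Cells make cholesterol from acetyl-CoA through mevalonate, squalene and lanosterol, and fatty acids through malonyl-CoA on fatty acid synthase. Both pathways are largely switched on by the SREBP transcription factors, encoded by SREBF1 and SREBF2. When membrane sterol is low, SCAP escorts SREBP out of the endoplasmic reticulum for cleavage, and when sterol is high, INSIG proteins hold the complex back, so that the genes of the set often move together. Alveolar type II cells, which A549 cells resemble in part, use the same pathways to make the lipids of surfactant.

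Because the set is known for its shared regulation, its promoters were read first. RefSeq promoters on GRCh38.p14, running over 300 bases (250 before to 50 after a start site), were found for 26 of the 30 genes, with 35 start sites between them. On either strand, CCAAT, the box bound by NF-Y beside SREBP sites, lay in 24 of these 35 promoters (68.6%), against 34.6% of all 35116 promoters of the same length. GGGCGG, the GC box bound by Sp1, lay in 31 (88.6%), against 45% of all. The letters TCACNCCAC, a strict form of the sterol regulatory element, lay in 1 (2.86%), against 1.13% of all. Matches to different motifs were counted separately and may overlap, as may the promoters of 1 gene. Of the stretches below, that of HMGCS1 belongs to 1 of its start sites, and the promoter of another had no CCAAT box. That of SREBF2 overlaps the annotated gene SREBF2-AS1. The stretches are shown as examples of 3 layouts, with 4, 2 and 1 CCAAT boxes before the start, together with the only match to the sterol element. They run 5′ to 3′ on the strand of the gene, with CCAAT or its reverse complement ATTGG in capitals in the first 3 and the sterol element in capitals in the last, which begins at position -133 from the SREBF2 start.
MSMO1 (chr4:165327419-165327668, plus strand): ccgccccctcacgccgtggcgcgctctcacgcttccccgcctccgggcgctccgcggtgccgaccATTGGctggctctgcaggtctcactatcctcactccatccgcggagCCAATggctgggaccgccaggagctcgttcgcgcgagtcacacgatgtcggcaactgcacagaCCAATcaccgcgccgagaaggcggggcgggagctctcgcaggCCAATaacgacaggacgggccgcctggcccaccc
HMGCS1 (chr5:43313413-43313662, minus strand): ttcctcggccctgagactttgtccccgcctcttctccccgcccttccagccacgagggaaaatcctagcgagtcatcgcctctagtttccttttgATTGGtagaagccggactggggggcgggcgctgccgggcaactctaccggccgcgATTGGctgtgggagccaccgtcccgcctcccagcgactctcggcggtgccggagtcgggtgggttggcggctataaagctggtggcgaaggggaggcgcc
LSS (chr21:46228775-46229024, minus strand): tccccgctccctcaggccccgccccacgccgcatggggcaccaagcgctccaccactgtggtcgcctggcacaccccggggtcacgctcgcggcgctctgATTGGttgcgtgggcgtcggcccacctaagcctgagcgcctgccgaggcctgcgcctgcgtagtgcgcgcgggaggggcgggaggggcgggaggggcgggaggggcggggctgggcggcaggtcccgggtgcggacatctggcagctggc
SREBF2 (chr22:41832962-41832991, plus strand): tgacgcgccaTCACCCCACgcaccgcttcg

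These letters are a description of sequence and not of binding. The tested genes with a CCAAT box had a median log2 fold change of 0.01 (20 genes), and those with a promoter but no such box had one of 0.02 (6 genes).

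The signal of each array was background-corrected, quantile-normalized and put on the log2 scale, where an undetected probe lies near 4. Changes are given as the NME2 induced mean minus the control mean on this scale, tested with limma and adjusted by Benjamini-Hochberg over all 11358 genes. None of the 29 genes passed an adjusted p of 0.05, where 0.247% of all genes did (18 higher, 0.158%, and 10 lower, 0.0880%), and their adjusted p-values lay between 0.107 and 0.965. At an unadjusted p of 0.05, 1 gene was higher, PMVK, and 1 was lower, FADS2, where 7.30% of all genes were higher and 7.17% lower (14.5% together). The median change of the 29 genes was 0.03 and their median absolute change 0.08, beside 0.00 and 0.12 over all genes. The point estimate was positive for 17 genes and negative for 12.

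The intervals describe changes on this log2 scale, where the added offset draws in the changes of dim probes. The 95% interval of the change lay within 0.5 log2 units (1.41-fold) on either side of 0 for 23 of the 29 genes (79.3%), beside 73.5% of all genes, and within 1 log2 unit (2-fold) for all 29. These bounds do not carry over to deposited intensities, where the group means of dim FADS2 differed 2.10-fold and those of dim STARD4 1.51-fold. Such ratios of small intensities depend on the background removed. The standard error of a change had a median of 0.09 in the set and reached 0.24 for SREBF2. The genes whose intervals reached past 0.5 were FADS2, PMVK, STARD4, TM7SF2, FDPS and SREBF2. The plot of changes by role shows the interval of each gene. Reaching past 0.5 depended on the estimate as well as on the width. The interval of EBP (-0.25 to 0.38) was wider than that of FADS2 (-0.89 to -0.35) but stayed within 0.5.

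**Figure D1:**
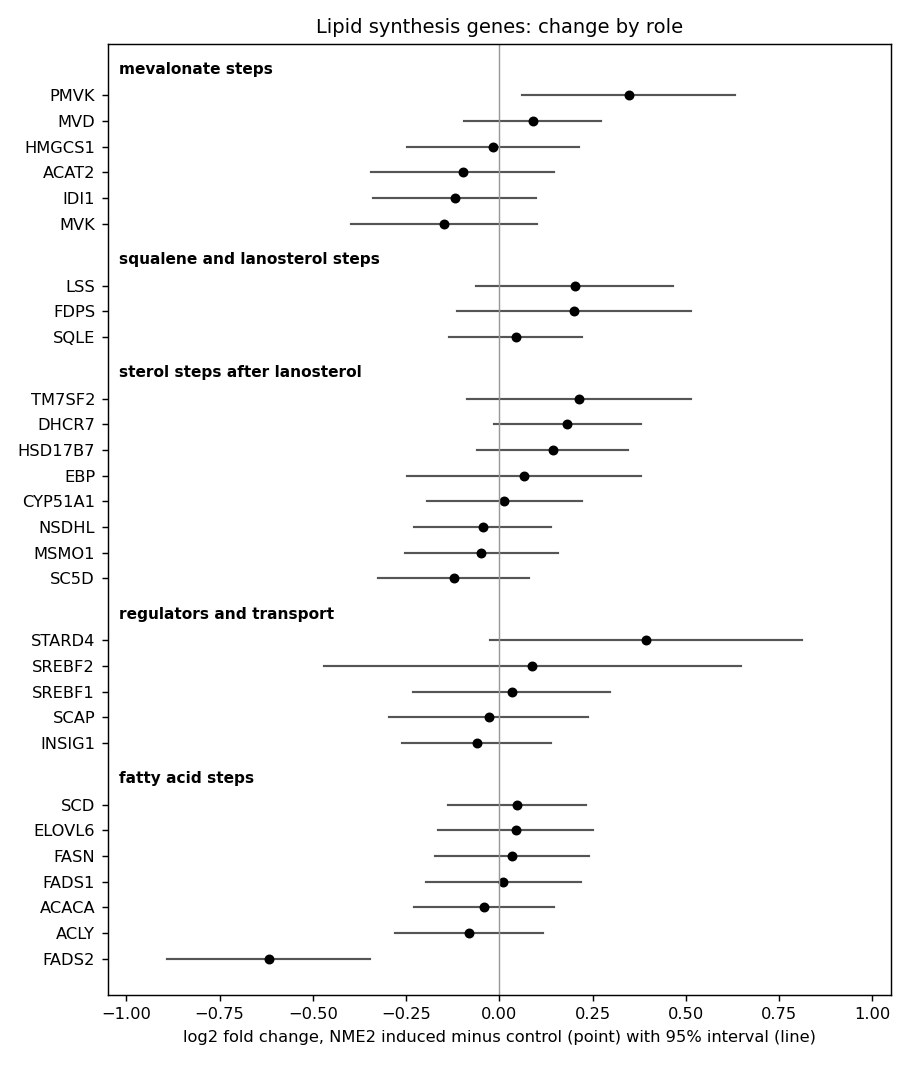
Change of each of the 29 genes, grouped by role, with the log2 fold change (NME2 induced minus control, 3 arrays each) on the x axis. Points are estimates and lines are 95% intervals from limma. Only FADS2 (-0.62) and PMVK (0.35) have lines that stay clear of 0, and neither passed the adjusted threshold.

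The transcription factors that govern the set and their partners had point estimates between -0.06 and 0.09 on their brightest probes, with a wide interval for SREBF2. SREBF1, which encodes the SREBP tied most to fatty acid genes, had a log2 signal of 9.10 ± 0.18 in NME2 induced cells and 9.07 ± 0.11 in control cells (SD, n = 3 arrays each), a change of 0.03 (SE 0.11, limma adjusted p = 0.912). A second detected SREBF1 probe had a change of -0.05. SREBF2, which encodes the SREBP tied most to cholesterol genes, was dim, with 5.21 ± 0.32 in NME2 induced cells and 5.12 ± 0.45 in control cells, and was detected on 3 NME2 induced arrays and 2 control arrays. Its change of 0.09 had an interval of -0.47 to 0.65 (limma adjusted p = 0.884), so a moderate shift in this gene was not detectable at this signal.

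SCAP, the escort of SREBP, measured 8.53 ± 0.20 in NME2 induced cells and 8.56 ± 0.08 in control cells, a change of -0.03 (limma adjusted p = 0.925). INSIG1, the sterol-sensing anchor and itself an SREBP target, measured 10.42 ± 0.04 in NME2 induced cells and 10.48 ± 0.11 in control cells, a change of -0.06 with an interval of -0.26 to 0.14 (limma adjusted p = 0.778). A second, dimmer INSIG1 probe had a change of -0.30 (SE 0.19, adjusted p = 0.527 over all detected probes in limma), with overlapping groups.

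STARD4, a cytosolic carrier that moves cholesterol between membranes, had the highest point estimate of the set. Its log2 signal was 6.06, 5.63 and 5.53 in NME2 induced replicates 1 to 3, against 5.27, 5.66 and 5.12 in control replicates 1 to 3. NME2 induced replicate 1 stood highest, while control replicate 2 lay above the remaining NME2 induced arrays, so the groups overlapped. The change of 0.39 (SE 0.18) had an interval of -0.03 to 0.81 and a limma adjusted p of 0.374. Without NME2 induced replicate 1 it was 0.23 (unadjusted p = 0.201 in limma), below the 0.29 of PMVK, and with an offset of 50 it was also 0.23, below the 0.28 of PMVK.

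Among the mevalonate steps, 6 genes were tested, with a median change of -0.06 and a range of -0.15 to 0.35. PMVK, phosphomevalonate kinase, which adds the second phosphate to mevalonate, stood at the top. Its log2 signal was 7.37, 7.18 and 7.24 in NME2 induced cells, against 6.96, 7.11 and 6.68 in control cells. Every NME2 induced array lay above every control array, with control replicate 3 the lowest of all. The deposited intensities gave the same picture, with 150, 129 and 136 units in NME2 induced cells and 109, 123 and 87.1 units in control cells. The change of 0.35 (SE 0.12, 1.27-fold) had an interval of 0.06 to 0.63, an unadjusted p of 0.0235 and an adjusted p of 0.28 in limma. Among all genes, 403 (3.55%), PMVK included, had a change at least as high, a share given as a description because PMVK was singled out by its p-value. Without NME2 induced replicate 1 the unadjusted p was 0.0747 and without control replicate 3 it was 0.0738, with a change of 0.23.

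The enzymes around PMVK in the pathway gave smaller values. HMGCS1, the cytosolic HMG-CoA synthase, measured 10.15 ± 0.15 in NME2 induced cells and 10.17 ± 0.06 in control cells, a change of -0.02 with an interval of -0.25 to 0.21 (limma adjusted p = 0.952). MVK, mevalonate kinase, which acts just before PMVK, had a change of -0.15, and MVD, the decarboxylase that follows it, had one of 0.09. IDI1, the isomerase that makes dimethylallyl diphosphate, had a change of -0.12, and ACAT2, the cytosolic thiolase that opens the pathway, one of -0.10. The intervals of these 5 genes all contained 0 on their brightest probes. A second, dimmer ACAT2 probe, given with the other probes below, had a change of 0.52.

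The plot of every array shows how the groups lay gene by gene. NME2 induced and control arrays did not overlap for 3 genes that were higher (PMVK, DHCR7 and HSD17B7) and 1 that was lower (FADS2), where 11.3% of all genes were apart and higher and 10.7% apart and lower (22.0% together).

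**Figure D2:**
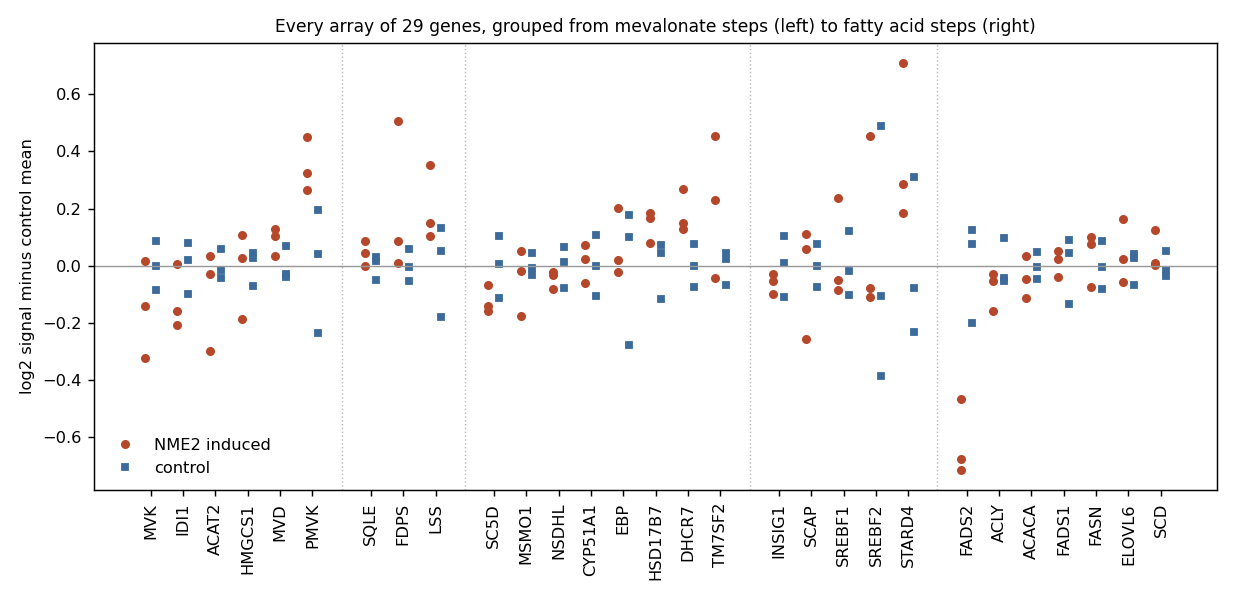
Log2 signal of each array minus the control mean of that gene (y axis) for the 29 genes (x axis), in the order mevalonate steps, squalene and lanosterol steps, later sterol steps, regulators and transport, and fatty acid steps. Circles are NME2 induced arrays and squares are control arrays, 3 each. FADS2 is the one gene whose NME2 induced arrays all lie below its control arrays.

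From farnesyl diphosphate to lanosterol, 3 genes were tested, and their changes were 0.04, 0.20 and 0.20. FDPS, farnesyl diphosphate synthase, whose product feeds both sterols and protein prenylation, had a log2 signal of 8.21, 8.14 and 8.63 in NME2 induced cells, against 8.18, 8.07 and 8.12 in control cells. Its higher mean came from NME2 induced replicate 3, and the remaining arrays of both groups lay close together (change 0.20, SE 0.13, limma adjusted p = 0.525). Without that array its change was 0.05. LSS, lanosterol synthase, which closes the sterol rings, measured 7.86, 8.11 and 7.90 in NME2 induced cells and 7.57, 7.80 and 7.88 in control cells. The groups overlapped only through control replicate 3 and NME2 induced replicate 1 (change 0.20, SE 0.11, limma adjusted p = 0.45). The change was 0.11 without control replicate 1 and 0.13 without NME2 induced replicate 2. SQLE, squalene epoxidase, a rate-limiting enzyme of the late pathway, had a change of 0.04 with an interval of -0.13 to 0.22.

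After lanosterol, 8 genes were tested, with a median change of 0.04 and a range of -0.12 to 0.21. DHCR7, which reduces 7-dehydrocholesterol to cholesterol in the last step of one branch, had a log2 signal of 9.64, 9.66 and 9.78 in NME2 induced cells, against 9.43, 9.51 and 9.58 in control cells. The groups lay apart by a narrow gap, and the change was 0.18 (SE 0.08, interval -0.01 to 0.38, limma adjusted p = 0.377). A second DHCR7 probe measured 9.36, 9.49 and 9.56 in NME2 induced cells and 9.24, 9.09 and 9.01 in control cells. That probe too was apart, with a change of 0.36 (SE 0.10) and an adjusted p of 0.217 over all detected probes in limma.

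TM7SF2, a sterol reductase of the endoplasmic reticulum that acts just after lanosterol demethylation, had a log2 signal of 6.82, 7.09 and 7.32 in NME2 induced cells, against 6.89, 6.91 and 6.79 in control cells. NME2 induced replicates 2 and 3 lay above all control arrays and replicate 1 did not (change 0.21, SE 0.13, limma adjusted p = 0.48). The change was 0.09 without NME2 induced replicate 3 and 0.34 without replicate 1. HSD17B7, a reductase that removes a keto group during demethylation of the sterol ring, measured 11.80, 11.89 and 11.91 in NME2 induced cells and 11.61, 11.80 and 11.77 in control cells. Its groups were apart by less than the last digit shown (change 0.14, SE 0.09, limma adjusted p = 0.482), and without control replicate 1 the change was 0.09. Annotated pseudogenes of HSD17B7 and of FDPS exist, and how far these probes also read them was not tested.

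On their brightest probes the remaining later enzymes lay near 0. CYP51A1, which removes the first methyl group of lanosterol, had a change of 0.01, MSMO1, the oxidase of the next demethylation, one of -0.05, and NSDHL, its decarboxylating partner, one of -0.05. EBP, the sterol isomerase, had a change of 0.07, and SC5D, the desaturase before DHCR7, one of -0.12. A second MSMO1 probe, given with the other probes below, had a change of -0.49 with its groups apart. All 17 sterol enzymes together had a median change of 0.04.

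The fatty acid genes gave 6 values close to 0 and 1 that stood away from them. FADS2, the delta-6 desaturase that takes the first step from linoleic and alpha-linolenic acid to long polyunsaturated fatty acids, had a log2 signal of 4.89, 4.93 and 5.14 in NME2 induced cells, against 5.68, 5.73 and 5.40 in control cells. Every NME2 induced array lay below every control array. In deposited units the intensities were 13.5, 14.4 and 19.4 in NME2 induced cells and 35.5, 37.3 and 26.6 in control cells, which is dim, although the probe was detected on all 6 arrays. The change was -0.62 (SE 0.12, interval -0.89 to -0.35, 1.54-fold), with an unadjusted p of 0.000874 and an adjusted p of 0.107 in limma.

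Among all genes, 33 (0.291%), FADS2 included, had a change at least as low as that of FADS2, which ranked 92 by p-value. FADS2 was singled out for its value, so this share is a description and not a test. With an offset of 50 its change was -0.33. The ratio of mean deposited intensities was 2.10, control over NME2 induced. Both means are small and the values appear to be background-subtracted, so this ratio depends on the background removed.

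**Figure D3:**
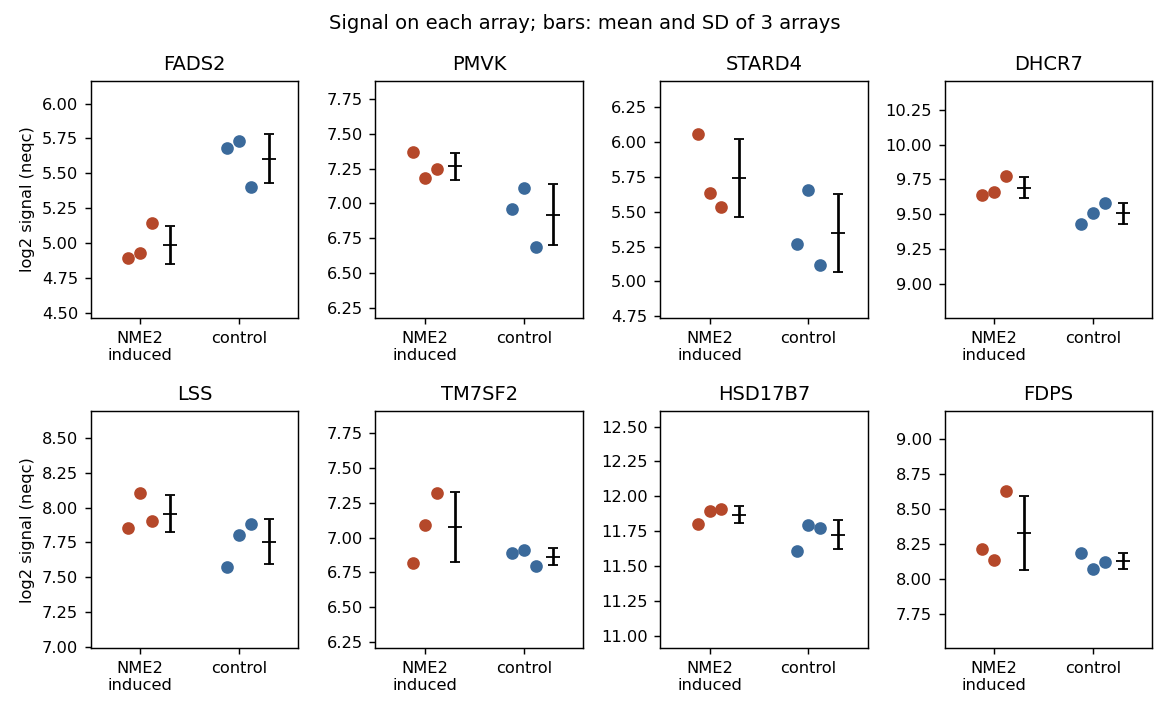
Log2 signal on each array (y axis) for the 8 genes with the smallest p-values, with NME2 induced arrays on the left and control arrays on the right of each panel. Black bars are the mean and SD of 3 arrays, and every panel spans the same number of log2 units. FADS2, PMVK, DHCR7 and HSD17B7 show no overlap, while STARD4, LSS, TM7SF2 and FDPS do.

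FADS1, the delta-5 desaturase that acts later on the same fatty acids, lies head to head with FADS2 on chromosome 11, and their annotated gene spans share 801 bases in RefSeq. FADS1 measured 11.54 ± 0.05 in NME2 induced cells and 11.53 ± 0.12 in control cells, a change of 0.01 with an interval of -0.20 to 0.22. The change of FADS2 was thus 0.63 log2 units below that of FADS1, a difference given without a test because FADS2 was singled out for its value.

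The enzymes of saturated and monounsaturated fatty acids gave changes between -0.08 and 0.05, with overlapping groups. FASN, fatty acid synthase, measured 10.14 ± 0.10 in NME2 induced cells and 10.10 ± 0.08 in control cells, a change of 0.03 with an interval of -0.17 to 0.24 (limma adjusted p = 0.879). SCD, the delta-9 desaturase that makes oleic acid, measured 12.86 ± 0.07 in NME2 induced cells and 12.81 ± 0.05 in control cells, a change of 0.05 with an interval of -0.14 to 0.23 (limma adjusted p = 0.817). ACLY, which makes cytosolic acetyl-CoA from citrate, had a change of -0.08, ACACA, the carboxylase that makes malonyl-CoA, one of -0.04, and ELOVL6, which lengthens palmitate, one of 0.04.

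Averaged over the genes on each array, the groups overlapped for the whole set and for the sterol enzymes. The mean deviation of the 29 genes from their own control means was -0.01, 0.03 and 0.05 in NME2 induced replicates 1 to 3. In control replicates 1 to 3 it was -0.03, 0.03 and 0.00. The means that follow use the same baseline. The 17 sterol enzymes averaged 0.02, 0.07 and 0.07 in NME2 induced cells, against -0.03, 0.03 and 0.00 in control cells, so NME2 induced replicates 2 and 3 lay above every control array and replicate 1 did not. The 7 fatty acid genes averaged -0.12, -0.07 and -0.07 in NME2 induced cells, against -0.01, 0.03 and -0.02 in control cells. With FADS2 left out these means were -0.02, 0.03 and 0.00 in NME2 induced cells and -0.03, 0.02 and 0.01 in control cells, so the gap rested on that gene.

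The symbols of the set were carried by 43 probes, of which 39 were detected on 3 or more arrays, and 9 genes had more than 1 detected probe. Of the 10 probes not used for the gene-level values, 5 had the sign of the probe that was used and 6 lay within 0.15 log2 units of it. None passed an adjusted p of 0.05, and the lowest was 0.114. Which transcripts each probe reads was not tested.

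Probes of 1 gene disagreed most in ACAT2 and MSMO1. The second probe of MSMO1, the sterol methyl oxidase, measured 7.53, 7.69 and 7.62 in NME2 induced cells, against 8.18, 8.03 and 8.09 in control cells. These groups lay apart with a change of -0.49 (SE 0.09, adjusted p = 0.114 over all detected probes in limma), while the brightest probe gave -0.05 and the remaining one 0.05. For ACAT2 the dimmer probe gave the positive change, and it measured 5.70, 5.18 and 5.38 in NME2 induced cells and 4.96, 5.02 and 4.71 in control cells. That probe had a change of 0.52 (SE 0.15, adjusted p = 0.226 over all detected probes in limma) against -0.10 for the brighter one. The MSMO1 and ACAT2 probes were singled out after their values were seen.

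**Figure D4:**
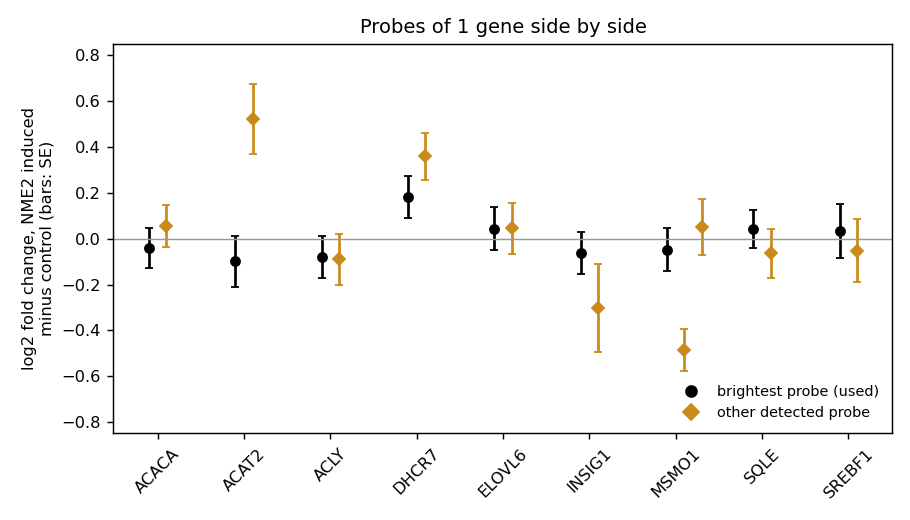
Log2 fold change (NME2 induced minus control, y axis) of every detected probe of the 9 genes with more than 1, with bars for the SE from limma. Circles are the brightest probes, which gave the gene-level values, and diamonds are the others. The probes of ACLY and ELOVL6 lie together, whereas those of MSMO1 and ACAT2 lie far apart.

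The genes next to the set in the same pathways gave a like picture. Of 53 such genes, 43 were tested, and none passed an adjusted p of 0.05. At an unadjusted p of 0.05 in limma, 2 were higher and 1 lower, where 7.30% of all genes were higher and 7.17% lower. Their changes lay between -0.38 and 0.32 with a median of 0.00. TECR, which completes each round of fatty acid elongation, measured 10.05 ± 0.10 in NME2 induced cells and 10.35 ± 0.06 in control cells, a change of -0.30 (SE 0.09, limma adjusted p = 0.221). With a variance that followed signal and was fitted robustly, TECR passed, with an adjusted p of 0.0232, where 2.64% of all genes passed (163 higher and 137 lower). SCD5, a second delta-9 desaturase, had a change of 0.29 (limma adjusted p = 0.23), ACSS2, which makes acetyl-CoA from acetate, one of 0.27 (adjusted p = 0.253), and ACACB, the carboxylase at mitochondria, one of -0.22 (adjusted p = 0.366).

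**Figure D5:**
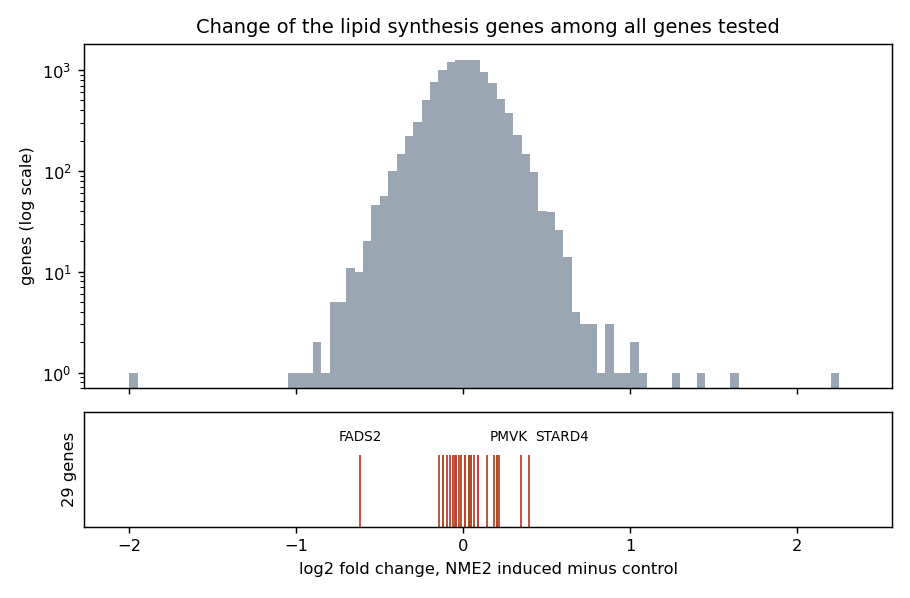
Upper panel, number of genes (log scale) by log2 fold change, NME2 induced minus control, for all 11358 genes tested. Lower panel, the 29 lipid synthesis genes on the same axis, where all but FADS2, PMVK and STARD4 lie between -0.15 and 0.21.

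The arrays themselves were alike, with 19043 to 20726 of 47231 probes detected on each and correlations of 0.991 to 0.994 within groups and 0.989 to 0.992 between them. The check of the induced gene went both ways. The brightest probe named NME2 was higher by 1.04 (limma adjusted p = 0.00642), with 8.48, 8.29 and 8.28 in NME2 induced cells and 7.34, 7.32 and 7.28 in control cells, and the other NME2 probes had changes of 0.26 and -0.59. The brightest probe named for the NME1-NME2 readthrough was lower by 1.99 log2 units (limma adjusted p = 0.000154), with 10.69, 10.62 and 10.76 in NME2 induced cells and 12.79, 12.63 and 12.61 in control cells. A second readthrough probe was lower too, with a change of -1.89 (adjusted p = 0.00638 over all detected probes in limma). Of 10 epithelial and A549 markers, 7 were tested and none passed an adjusted p of 0.05, while KRT18 and AKR1C1 were not detected. CDH1 was higher, with a change of 0.40 (unadjusted p = 0.00432, adjusted p = 0.173 in limma), and KRT19 lower, with one of -0.23 (unadjusted p = 0.0314, adjusted p = 0.301 in limma), each with its groups apart. KRT8, EPCAM, AKR1B10, ALDH1A1 and TXNRD1 had changes of -0.12 to 0.05 with overlapping groups. The part of these differences in the values of the lipid genes was not tested. Of 16 markers of other cell types, 4 were tested, and these (CD68, ACTA2, COL1A1 and ALB) were each detected on all 6 arrays. Their changes ran from -0.08 to 0.11 with no adjusted p under 0.05 in limma. CD68 measured 10.98 in NME2 induced cells and 10.87 in control cells, higher by 0.11 with its groups apart. In the same order ACTA2 measured 10.11 and 10.18, COL1A1 5.15 and 5.19, and ALB 5.53 and 5.61, with overlapping groups. The endothelial and adipocyte markers and PTPRC were not detected on enough arrays.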

How the data were processed

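Total RNA of 3 NME2 induced and 3 control A549 samples had been hybridised to Illumina HT-12 v4 arrays. The authors deposited bead intensities with a detection p-value for each of 47231 probes, made with BeadStudio (version not given in the sources used here). The deposited intensities appear to be already background-subtracted and brought to a common distribution, which is inferred from the values themselves. All arrays share a minimum of -44.94, a maximum of 22798.15 and medians of 7.54 to 7.57, and 26.6% to 26.8% of values lie at or below 0. A second deposited table held the same intensities. Raw bead signals were not used here, and the number of arrays limits the precision.

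Intensities were processed with neqc in limma 3.58.1 (R 4.3.3), which fits the background from the detection p-values, adds an offset of 16, applies quantile normalization and takes log2. If the deposited values were already corrected, as they appear to be, this is a second correction. Probes with a detection p-value under 0.05 on 3 or more of 6 arrays were kept, genes were named from GEO's platform annotation (30113 probes with 1 symbol, 8 with several, 17110 with none), and the brightest probe stood for a gene. Groups were compared with lmFit and eBayes, 2-sided, with Benjamini-Hochberg adjustment over 11358 genes and 95% intervals. Nothing states that the replicates came from separate cultures beyond the words biological replicates. The p-values thus set a group difference against the spread between these arrays, moderated over all genes.

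The members, gene lists, tests and alternatives were chosen with earlier results of these data known. Values on each array were given for the 8 members with the smallest p, and group means for SREBF1, SREBF2, SCAP, INSIG1, FASN, SCD and HMGCS1. Neighbouring genes were named by the 4 smallest p-values. Alternatives covered background correction, offset, normalization, detection filter, probe choice, variance model, replicate block, the methods' t-test and each array left out. Promoters and gene spans came from RefSeq, GRCh38.p14.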

Additional observations from a re-analysis of the deposited data

How the results depend on the processing

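No member passed the adjusted threshold under any alternative. FADS2 stayed lower in all 15 settings (-0.72 to -0.28, the smallest size with normexp without detection p-values and an offset of 50), with an unadjusted p under 0.05 in each and adjusted p-values of 0.0601 to 0.278. PMVK stayed higher (0.23 to 0.44) and kept an unadjusted p under 0.05 in 13 of 15. Genes called over all genes were 18 higher and 10 lower, and became 83 and 65 with normexp without detection p-values and an offset of 50 together, 74 and 49 with an offset of 50 alone, 39 and 30 for genes detected on all 6 arrays, 163 and 137 with eBayes trend and robust, and 10 and 3 with the methods' t-test. Lower calls were 6 without background correction and 5 without a filter. Leaving out 1 array gave 4 to 9 higher and 2 lower, 0 to 2 members higher and 1 lower at an unadjusted p of 0.05, and a median change of the members of 0.00466 to 0.0672, the highest without NME2 induced replicate 1. Members higher at an unadjusted p of 0.05 numbered 2 with that normexp and offset, for genes detected on all 6 arrays and with the mean of probes, and 3 with an offset of 50 alone and with trend and robust, where 1 neighbouring gene, TECR, was called. The share of all genes at an unadjusted p of 0.05 was not counted under these alternatives, so the member counts stand without it. The replicate block gave 4 genes higher and 1 lower, and no member. Deviations of same-numbered arrays correlated at 0.0337, -0.0408 and -0.0408. These values over all genes show no pairing by number, but they cannot settle whether the cultures were handled in pairs. Over 15 members and the 15 alternatives that gave fold changes (14 for SREBF2), 214 values kept sign and side and 10 changed sign, all in genes near 0. SREBF1 was -0.00962 with the mean of probes, and with 1 array left out SREBF1 ran between -0.0689 and 0.0938, SREBF2 between -0.104 and 0.333, SCAP between -0.0993 and 0.0847, FASN between -0.00633 and 0.0889 and HMGCS1 between -0.0783 and 0.0675. SREBF2 was not tested where detection on all 6 arrays was required. The causes of these shifts were not tested. Dim probes limit what FADS2, SREBF2 and STARD4 can show.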
